A study of Arabidopsis thaliana with 21 samples.

Results

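Of 22746 Affymetrix ATH1 probe sets for Arabidopsis genes, 27 are described here. Their mean signal in roots grown on MS plates in long days exceeded that of every other group by a set margin. They were chosen from the readout itself. The mean log2 signal in group ATGE_93 had to exceed that of each of the other 6 groups by at least 0.8, and all 3 ATGE_93 arrays had to lie above their array's 40th percentile. Probe sets of AT1G52820, AT1G52790 and AT1G80320 were left out. None of these 3 met the rule. A single gene was given for 19 of the 27 probe sets, and 8 are known here by their probe set ID only.

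The study profiled roots of the accession Col-0 on 21 single-colour arrays, in 7 groups of 3 hybridised with biotin-labelled material from total RNA. ATGE_93 had long days, 22 °C and 1x MS, a mineral plate medium, with 1% sucrose. The 6 other groups had continuous light. Of these, ATGE_94 and ATGE_98 grew on 0.5x GM, another plate medium, at 20 °C, and ATGE_95 and ATGE_99 differed from them by 5% sucrose listed in the substrate. Soil was the substrate of ATGE_3 and ATGE_9, at 23 °C with the humidity set to 65%, and soil is noted as a contaminant of the ATGE_3 tissue. For ATGE_94 and ATGE_95 the labels liken most plants to reference plants 7 days old. They give no age for the remaining groups, and the order used below, with ATGE_3, ATGE_94 and ATGE_95 as the earlier and ATGE_9, ATGE_98 and ATGE_99 as the later harvests, rests on what is known of this expression atlas. Day length, medium strength, listed sucrose and temperature all set ATGE_93 apart from every other group at the same time, so they cannot be told apart. Nor can the set of plants and its processing, or plant age, since ATGE_93 has no age in the labels and is placed in neither harvest here. The labels do not say that replicates were separate cultures, so p-values measure the spread between these samples. In whole roots, fewer cells of a type and less RNA per cell cannot be told apart.

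Plant roots secrete many small proteins into the cell wall space. Germin-like proteins, lipid-transfer proteins, chitinases, class III peroxidases and berberine bridge enzyme-like oxidases are large families of such proteins, often encoded by neighbouring gene copies and known for responses to microbes and to the growth environment. Tau-class glutathione transferases join glutathione to reactive compounds, and beta-expansins loosen cell walls. Of the 19 named members 8 belong to these 7 families, by background knowledge of the genes and not by a test of enrichment.

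The deposited values were MAS5 signals on a linear scale with each array scaled to a common trimmed mean. Array medians ran from 38.7 to 45.2, and the 40th percentiles, at or below which a signal is called dim here, from 22.9 to 28.0. Of a list of 12 root tissue markers, 4 had a named probe set, and their summed signal was 2905 to 3517 on the ATGE_93 arrays and 2447 to 3970 on the others. None of the 4 was dim on all ATGE_93 arrays. Most of the sum came from PYK10, at 2874 ± 347 in ATGE_93, so it says little of the other markers. EXPA7 gave 208 ± 31.8 in ATGE_93, 32.1 ± 0.816 in ATGE_9 and 331 ± 25.5 in ATGE_95. Of 33 photosynthesis and shoot genes, 6 had a named probe set, with a summed signal of 353 to 388 in ATGE_93 and 124 to 736 elsewhere. As a measure of RNA integrity, the ratio of 3' to 5' GAPDH control signal was lowest in ATGE_93 at 0.977 ± 0.0209 (SD, n = 3). Elsewhere it ran from 1.06 ± 0.0134 in ATGE_99 to 1.38 ± 0.0626 in ATGE_3. The actin ratio differed more between groups. It was also lowest in ATGE_93, at 1.38 ± 0.0923, and ran from 1.58 ± 0.106 in ATGE_99 to 2.81 ± 0.783 in ATGE_95. The part of RNA integrity in the members' levels was not tested.

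As the rule fixed it, the margin of ATGE_93 over the next highest group ran from 0.81 to 2.69 on the log2 scale, with a median of 0.96. It was at least 1.0 in 12 members and at least 2.0 in 2. The rule was met by 0.177% of the 15284 probe sets tested. On every one of the 27, all 3 ATGE_93 arrays lay above all 18 other arrays, which held for 3.55% of the probe sets tested and follows largely from the rule. Just inside the limit stood AT3G25640 (0.82), AT4G17280 (0.82) and AT5G03390 (0.83). Just outside stood AT1G60730 (0.78), AT1G49450 (0.77) and AT2G19970 (0.73), and 27 probe sets had margins between 0.6 and 0.8. The limit therefore divides a continuous range. In 7 members 5 or all 6 of the other groups were dim on all arrays, in 4 of them all 6. A further 10 had no group that was dim on all its arrays. All 27 passed the filter for testing, 5 of them only through their ATGE_93 arrays.

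The members varied among the 3 ATGE_93 arrays about as much as other probe sets. The coefficient of variation over them had a median of 7.17% for the members, from 2.62% to 28.9%, beside 7.16% for all tested probe sets that were above the 40th percentile on these 3 arrays. Replicate 1 was the highest of the 3 for 12 members, replicate 2 for 9 and replicate 3 for 6. The members' median deviation from the ATGE_93 mean was 0.023, −0.014 and −0.043 (log2) in the same order. No single ATGE_93 array carried the members' high level.

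**Figure D1:**
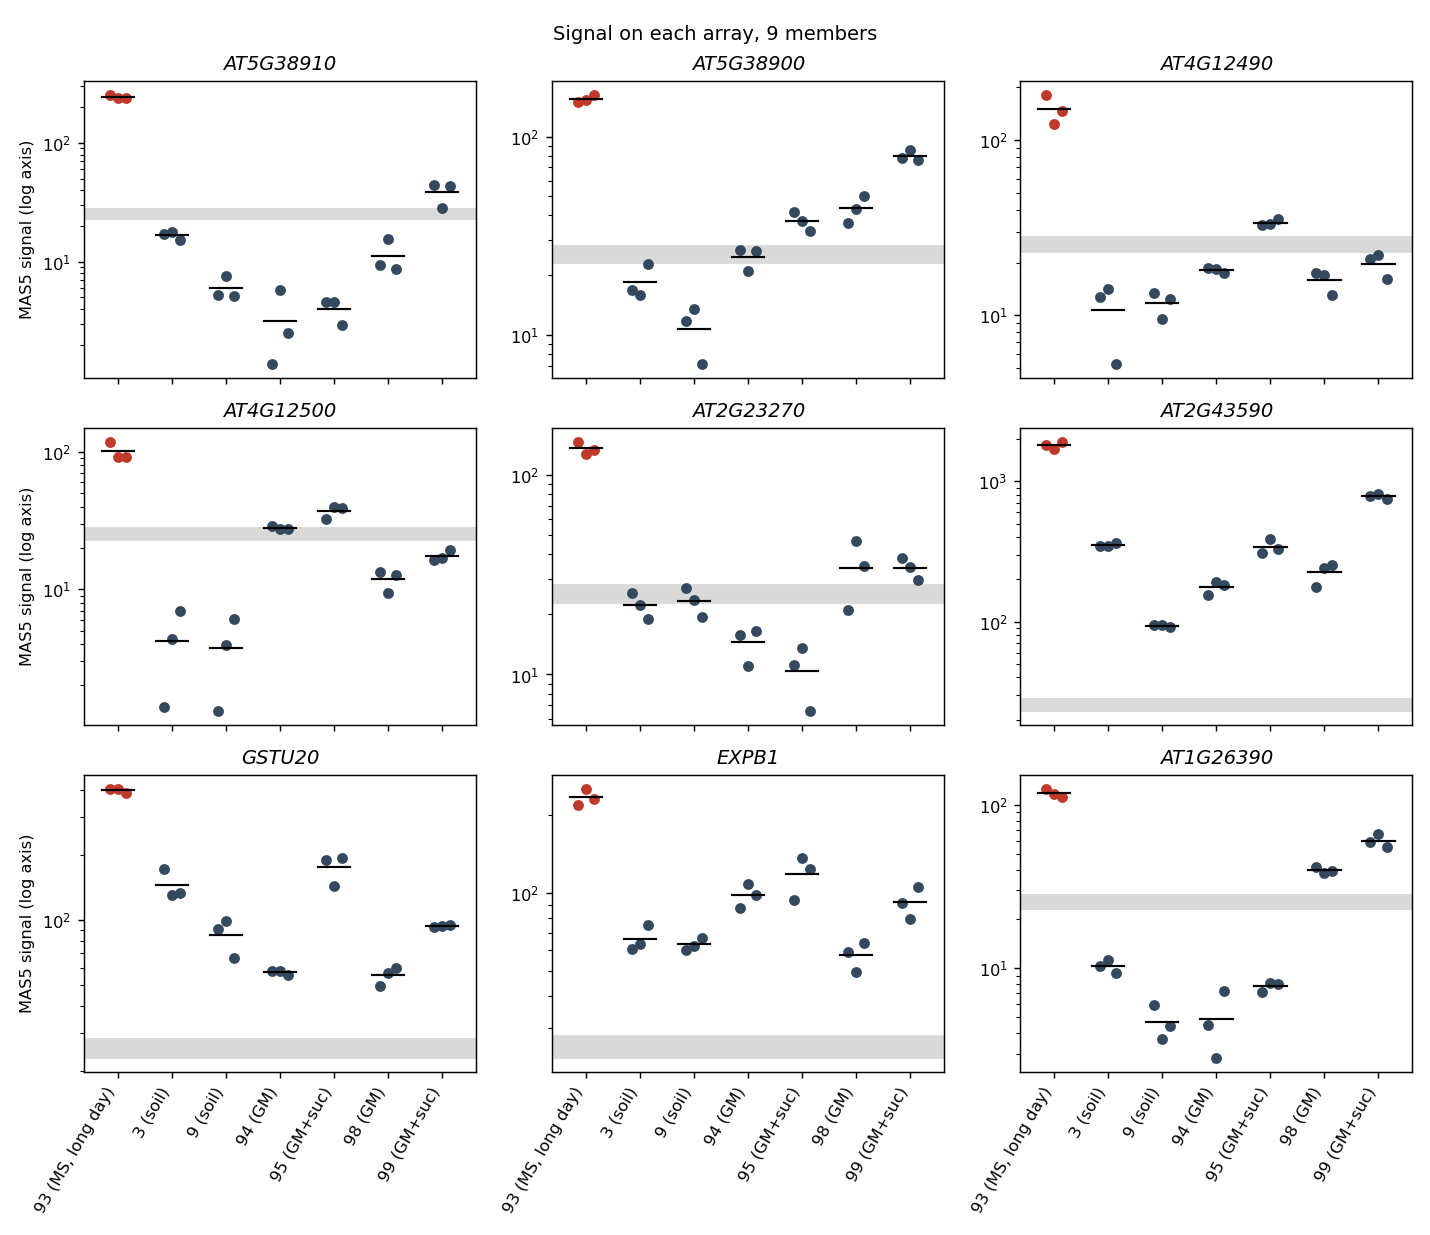
MAS5 signal on each array (log axis) for 9 members, with groups along the horizontal axis, points for arrays, bars for group means and a grey band for the range of the arrays' 40th percentiles. In each panel the 3 ATGE_93 arrays (red) lie above the 18 others, and for AT5G38910 every group but ATGE_93 and ATGE_99 lies below the band.

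The largest margin, 2.69, belonged to AT5G38910, a germin-like gene of the cupin family on chromosome 5. Its 3 ATGE_93 arrays gave 257, 239 and 239, against 43.97, 28.4 and 43.4 in ATGE_99, the next highest group. All arrays of the other 5 groups were dim, at 17.04, 17.8 and 15.2 in ATGE_3, 5.28, 7.57 and 5.15 in ATGE_9, 1.37, 5.72 and 2.49 in ATGE_94, 4.58, 4.59 and 2.91 in ATGE_95 and 9.44, 15.4 and 8.603 in ATGE_98. Only ATGE_93 and ATGE_99 therefore gave a level above the dim range, and ATGE_93 stood 6.47-fold above ATGE_99.

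AT5G38900, a gene of the thioredoxin superfamily, is the neighbour of AT5G38910 in the RefSeq gene order and is a member as well. It gave 149.9, 153 and 163 in ATGE_93 and 77.95, 85.5 and 76.1 in ATGE_99. The other plate groups lay at 36.8, 43.3 and 50.02 in ATGE_98, 41.7, 37.7 and 33.5 in ATGE_95 and 26.8, 20.99 and 26.4 in ATGE_94. Soil groups were lowest and dim, at 16.8, 15.8 and 22.8 in ATGE_3 and 11.7, 13.5 and 7.11 in ATGE_9. The next gene on its other side, AT5G38895, was not highest in ATGE_93, at 103 ± 4.28 there and 116 ± 11.98 in ATGE_98.

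AT4G12490 and AT4G12500, on chromosome 4, lie 2 steps apart in the RefSeq gene order, in a family of proline-rich lipid-transfer proteins that includes AZI1, a gene known from systemic defence. AT4G12490 gave 182, 124 and 146 in ATGE_93 and 32.9, 33.1 and 35.6 in ATGE_95, and every array of the other 5 groups was dim. Those dim means ran from 10.7 ± 4.77 in ATGE_3 to 19.7 ± 3.21 in ATGE_99. AT4G12500 gave 119, 91.3 and 92.4 in ATGE_93, 32.4, 39.999 and 38.8 in ATGE_95 and 28.8, 27.3 and 27.5 in ATGE_94. It was dim in the later plate groups, at 11.8 ± 2.14 in ATGE_98 and 17.5 ± 1.69 in ATGE_99, and on soil, at 4.23 ± 2.76 and 3.75 ± 2.38. Both copies had ATGE_95 as the next highest group. Copies of this family are similar in sequence, and whether their probe sets share signal was not tested.

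AT2G23270 had the third largest margin, 1.99. It gave 147, 127 and 134 in ATGE_93, 21.005, 46.7 and 34.9 in ATGE_98 and 38.4, 34.7 and 29.7 in ATGE_99. The remaining means lay between 10.4 ± 3.58 in ATGE_95 and 23.4 ± 3.795 in ATGE_9. ATGE_98 and ATGE_99 overlapped, and no array outside ATGE_93 exceeded 46.7.

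The brightest member was AT2G43590, a chitinase family gene, whose product family cleaves the chitin of fungal walls and insects. It gave 1815, 1691 and 1921 in ATGE_93 and 786, 806 and 749 in ATGE_99. Below these came 344, 345 and 363 in ATGE_3, 309, 388 and 328 in ATGE_95, 175, 243 and 255 in ATGE_98, 156, 190.3 and 181 in ATGE_94 and 94.3, 94.3 and 91.2 in ATGE_9. ATGE_3 and ATGE_95 overlapped, as did ATGE_98 and ATGE_94, while ATGE_9 was the lowest. AT2G43570, a chitinase family gene that lies 2 genes away, was also highest in ATGE_93, at 268 ± 9.04 against 209 ± 13.7 in ATGE_99, with a margin of 0.36 that kept it out of the set. The genes on the other side differed. AT2G43610, also 2 genes away, had its lowest mean in ATGE_93, at 344 ± 17.3 beside 349.8 ± 40.4 in ATGE_95 and 764 ± 30.1 in ATGE_9. AT2G43600 gave 28.9 ± 6.32 in ATGE_93 and 39.8 ± 3.54 in ATGE_9, and AT2G43620 gave 14.4 ± 3.68 and 43.97 ± 5.87 in ATGE_3.

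AT1G26390, a berberine bridge enzyme-like gene of a family of flavin-dependent oxidases, gave 126, 117 and 111 in ATGE_93. It gave 58.7, 66.5 and 54.9 in ATGE_99 and 41.8, 38.5 and 39.5 in ATGE_98, and was dim on all arrays of ATGE_3, ATGE_9, ATGE_94 and ATGE_95. The plate groups of the later harvest were therefore the only others with a level above the dim range. Of the 3 other tested genes from AT1G26380 to AT1G26420, 1 was highest in ATGE_93, beside 10.7% of all tested probe sets. It was AT1G26380, next to AT1G26390, at 96.2 ± 2.57 in ATGE_93 and 66.7 ± 6.09 in ATGE_98. AT1G26410 and AT1G26420 had higher means in ATGE_98 and ATGE_99 than in ATGE_93, where they stood at 23.5 ± 1.71 and 32.8 ± 3.16. AT1G26420 stood at 45.1 ± 2.02 in ATGE_98.

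AT4G31470, of the family of pathogenesis-related 1-like secreted proteins, gave 71.4, 80.9 and 75.1 in ATGE_93 and 34.5, 45.8 and 43.8 in ATGE_95. It was dim on every array of ATGE_98 and ATGE_99, at 17.4 ± 7.49 and 19.2 ± 2.66.

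GSTU20 (AT1G78370), a tau-class glutathione transferase known for its place in glucosinolate synthesis, gave 405, 405 and 387 in ATGE_93. ATGE_95 followed with 190.3, 143 and 193 and ATGE_3 with 171, 131 and 134. Lower still were 92.5, 93.7 and 95.03 in ATGE_99, 91.1, 98.9 and 66.8 in ATGE_9, 58.4, 58.2 and 55.6 in ATGE_94 and 49.3, 57.2 and 60.1 in ATGE_98. ATGE_95 overlapped with ATGE_3, and ATGE_94 with ATGE_98, the lowest groups. Of the 8 other tested GSTU genes 3 were highest in ATGE_93, beside 10.7% of all tested probe sets. GSTU25 was one, at 938 ± 88.7 there and 611 ± 25.5 in ATGE_99. GSTU26 gave 605 ± 55.02 and 416 ± 20.3 in these groups, and GSTU28 gave 237 ± 9.73 beside 228 ± 15.2 in ATGE_95. These 3 missed the margin, at 0.61, 0.54 and 0.06.

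AT4G22530, of the methyltransferase superfamily, gave 170.1, 199.99 and 215 in ATGE_93 and 111, 109 and 98.7 in ATGE_95. The 2 soil groups were lowest, at 30.6 ± 1.93 and 25.5 ± 2.08, below every plate array.

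Among cell wall genes, EXPB1 (AT2G20750), a beta-expansin, gave 218, 253 and 231 in ATGE_93. It gave 93.6, 136 and 124 in ATGE_95, 87.6, 108 and 98.3 in ATGE_94 and 91.01, 78.97 and 105 in ATGE_99. These 3 plate groups overlapped, and ATGE_98, ATGE_3 and ATGE_9 lay lower with means of 57.6 ± 7.36, 66.4 ± 7.704 and 63.2 ± 3.62. Of the 3 other tested genes named EXPB or EXLB, 1 was highest in ATGE_93, beside 10.7% of all tested probe sets. It was EXPB3, at 737 ± 87.8 beside 651 ± 52.4 in ATGE_99.

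AT1G44970, a class III peroxidase gene, gave 305, 321 and 304 in ATGE_93. Next were 179, 164 and 176 in ATGE_3 and 170.4, 178 and 157 in ATGE_95, which overlapped. AT4G17280, a gene for a membrane protein with cytochrome b561 and DOMON domains, gave 607, 626 and 577 in ATGE_93, 306, 419 and 308 in ATGE_95 and 349, 312 and 272 in ATGE_94. ATGE_94 and ATGE_95 overlapped, and ATGE_9 was lowest at 178 ± 3.095.

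The remaining named members were dimmer or differed less between groups. AT4G37220, of the WCOR413 family of cold acclimation membrane proteins, had means of 60.6 ± 6.19 in ATGE_93 and 32.3 ± 5.05 in ATGE_99. AT3G21680 had 79.6 ± 5.71 and 42.7 ± 2.42 in the same groups. AT3G25640 had 134 ± 9.96 in ATGE_93 and 76.3 ± 6.87 in ATGE_3. AT1G53620 had 66.4 ± 14.9 in ATGE_93 and was above the dim range in 1 other group, ATGE_98, at 29.1 ± 7.63. AT3G49080 had 46.4 ± 6.06 in ATGE_93 and 24.3 ± 4.84 in ATGE_94, near the dim range. AT5G03390 was dim on all 18 other arrays, and its 34.4 ± 9.96 in ATGE_93 was at least 1.28-fold above ATGE_3.

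Of the 8 unnamed probe sets, 267565_at covered the widest range. It gave 381, 362 and 429 in ATGE_93 and 195, 259 and 203 in ATGE_99. Its means were 44.4 ± 9.499 in ATGE_98 and 29.6 ± 8.28 in ATGE_95, and it was dim in ATGE_94 and both soil groups. 248048_at gave 381, 367 and 400.4 in ATGE_93 and 142, 172 and 164 in ATGE_3, its next group. The other 6 had ATGE_93 means from 24.7 to 266, and 3 of them were dim on all 18 other arrays. The dimmest, 264007_at, had a margin of 1.43 over ATGE_99. With the dim ATGE_99 arrays set at their 40th percentiles, ATGE_93 stood at 0.89 times ATGE_99. Its margin, counted among the 12 of at least 1.0, is therefore no measured excess.

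**Figure D2:**
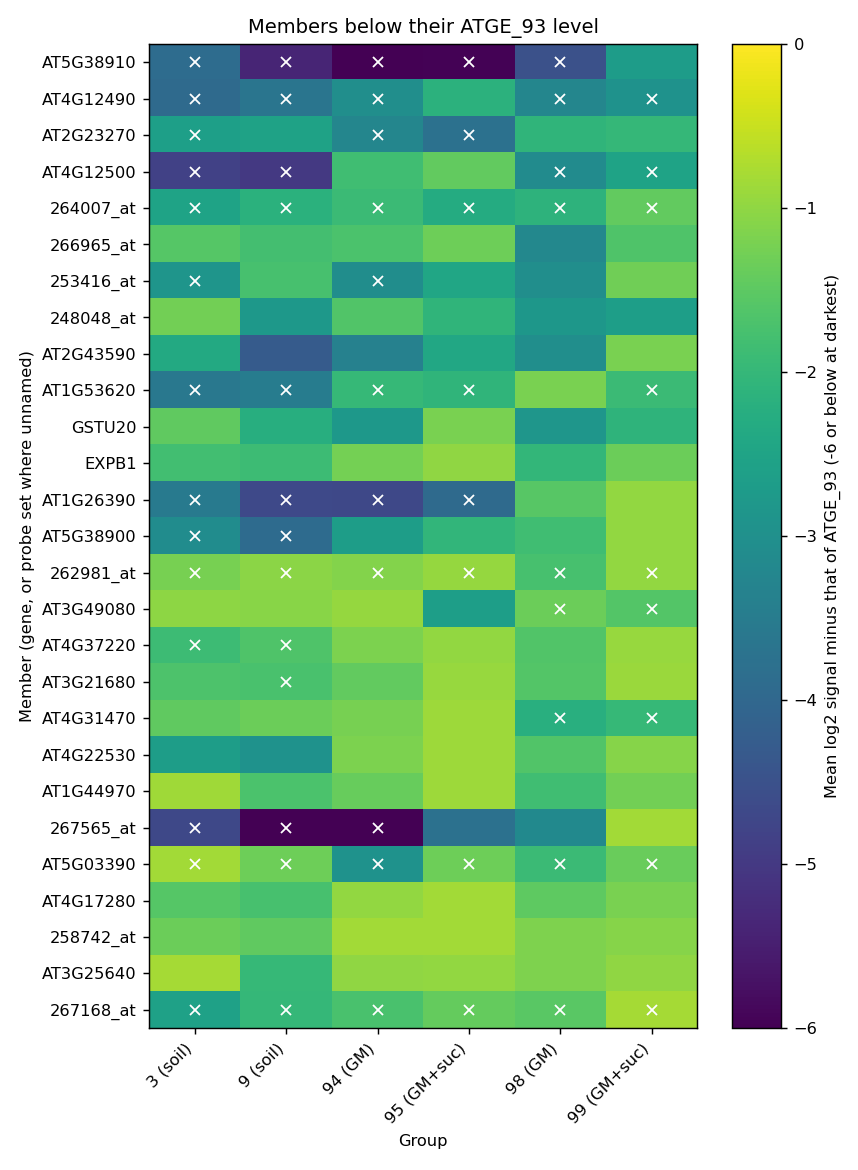
Mean log2 signal of each of the 27 members in 6 groups minus its mean in ATGE_93, in the order of the margin, with a white cross where all 3 arrays of a group were dim. Colours are darkest for AT5G38910 and 267565_at, and 4 members carry crosses in all 6 groups.

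The rule did not rank the other 6 groups among themselves. The next highest group was ATGE_99 for 11 members, ATGE_95 for 9, ATGE_3 for 4, ATGE_94 for 2 and ATGE_98 for 1, and ATGE_9 for none. Thus 20 of the 27, or 74.1%, came next in 1 of the 2 groups on GM with 5% sucrose. Of the 1616 tested probe sets that were highest in ATGE_93 and above the 40th percentile on its 3 arrays, 54.1% did. Over those probe sets the next group was ATGE_95 in 34.3%, ATGE_99 in 19.8%, ATGE_3 in 18.3%, ATGE_94 in 11.4%, ATGE_9 in 9.84% and ATGE_98 in 6.31%.

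Differences between the other 6 groups use no ATGE_93 array. They were tested with limma across all 15284 probe sets, with Benjamini-Hochberg adjustment and adjusted p below 0.05 as the threshold. The ATGE_93 arrays did enter the fitted spread and the filter for testing. The 5 members tested only through them were 264007_at, 262981_at, 267168_at, AT5G03390 and AT1G53620, and any calls of these are included in the counts below. Log2 differences are given ± standard error, with 3 arrays in each group. Sucrose was compared on GM for both harvests. In the later sets, ATGE_99 against ATGE_98, 14 members rose and 0 fell (median log2 difference 0.59), where 12.7% of all tested probe sets rose and 11.9% fell (median 0.011). In the earlier sets, ATGE_95 against ATGE_94, 9 rose and 2 fell (median 0.36), where 15.2% rose and 19.2% fell (median −0.035). Both groups were dim for 8 members in each comparison, which left 13 of the 14 later rises and 8 of the 9 earlier ones with a measured level on at least 1 side. Of the 9 earlier and the 14 later rises, 7 were the same members.

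AT2G43590 rose with sucrose 1.94-fold in the earlier sets (0.96 ± 0.11, adjusted p = 2.4e-07) and 3.53-fold in the later (1.82 ± 0.11, adjusted p = 9.6e-12). GSTU20 rose 3.03-fold in the earlier sets (adjusted p = 1.6e-09) and 1.69-fold in the later (adjusted p = 1.1e-04). The 2 genes thus differed in the stage at which the rise was larger. The difference of the sucrose effects, later minus earlier, was 0.86 ± 0.15 for AT2G43590 (adjusted p = 5.6e-04) and −0.84 ± 0.18 for GSTU20 (adjusted p = 0.0043). Past the threshold were 4 positive differences and 1 negative, beside 7.07% and 5.44% of all tested probe sets. Over all 27 members, 20 values were above 0 and 7 below (median 0.25, beside 0.046 over all tested).

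AT1G44970, the peroxidase gene, rose at both stages (0.51 ± 0.09 and 0.56 ± 0.09). AT5G38910 rose in the later sets, where it was at least 1.46-fold higher with sucrose (adjusted p = 7.4e-04), and was dim in both earlier groups. Its neighbour AT5G38900 rose in the later sets (0.89 ± 0.19, adjusted p = 0.0011) and in the earlier (0.61 ± 0.19, adjusted p = 0.016). That earlier call ended without ATGE_94 replicate 2 (0.49, adjusted p = 0.083) and without ATGE_95 replicate 1 (0.53, adjusted p = 0.067). AT4G12490 rose in the earlier sets, at least 1.41-fold (adjusted p = 0.012). AT4G12500 gave 0.41 ± 0.45 without passing, with a spread fitted over all groups. Its ATGE_95 arrays all lay above its ATGE_94 arrays (1.33-fold), and whether the 2 copies differ in their response was not tested.

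EXPB1 (0.67 ± 0.13) and AT4G22530 (0.55 ± 0.12) rose in the later sets. AT3G21680 rose at both stages (0.51 ± 0.15 and 0.70 ± 0.15), the earlier rise being lost without ATGE_94 replicate 1 (0.36, adjusted p = 0.077). AT4G37220 (0.72 ± 0.25) and AT4G17280 (0.27 ± 0.10) passed in the later sets near the threshold. AT4G37220 gave 0.32, adjusted p = 0.3 without ATGE_98 replicate 2 and did not pass without ATGE_99 replicate 1 or 2 either (0.60, adjusted p = 0.14, and 0.74, adjusted p = 0.069). Under quantile normalization it gave 0.64, adjusted p = 0.057. AT4G17280 did not pass when any 1 of the 6 arrays compared was left out, with adjusted p from 0.053 to 0.12, nor under median centring (0.23, adjusted p = 0.081). AT3G49080 fell in the earlier sets (−1.68 ± 0.52), with arrays of both groups overlapping. This was lost without ATGE_95 replicate 1 (−1.27, adjusted p = 0.096), ATGE_95 replicate 3 (−1.27, adjusted p = 0.096) or ATGE_94 replicate 2 (−1.56, adjusted p = 0.056). AT1G26390 passed in the earlier sets (0.77 ± 0.26) with both groups dim, and without ATGE_94 replicate 2 gave 0.43, adjusted p = 0.18. It did not pass without ATGE_94 replicate 1 (adjusted p = 0.052), ATGE_95 replicate 2 (adjusted p = 0.054) or ATGE_95 replicate 3 (adjusted p = 0.057) either, nor with the pseudocount (adjusted p = 0.06) or in a fit of ATGE_94 and ATGE_95 alone (adjusted p = 0.23).

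**Figure D3:**
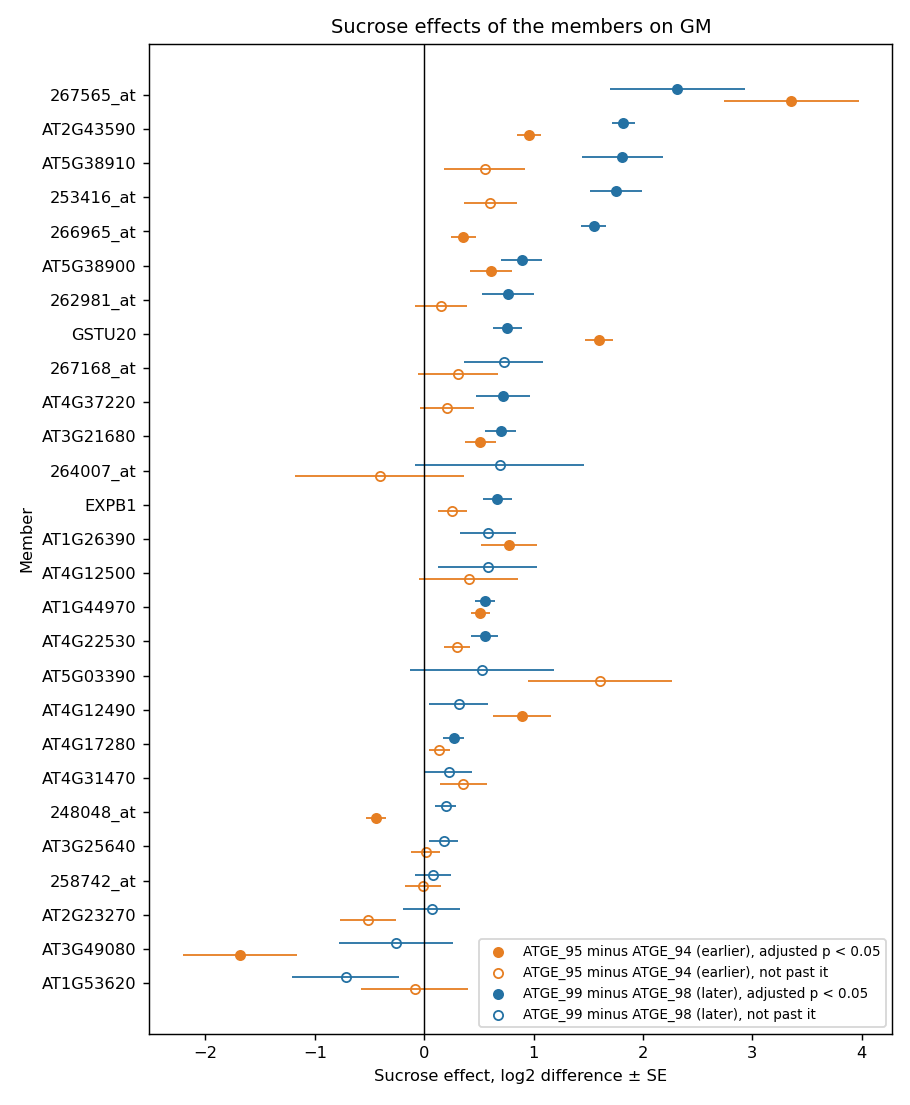
Fitted sucrose effect of each member on GM (log2 difference ± SE, 3 arrays per group) in the earlier sets (orange) and the later sets (blue), ordered by the later effect, with filled points past adjusted p 0.05. In the later sets 14 points are filled, all to the right of 0, and in the earlier sets 9 filled points lie to the right and 2 to the left.

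Harvest stage was compared within each medium, where stage and the set of plants cannot be told apart. On GM alone, ATGE_98 against ATGE_94, 6 members rose and 9 fell, beside 21.3% and 20.4% of all tested probe sets. On GM with sucrose, ATGE_99 against ATGE_95, 7 rose and 8 fell, beside 27.9% and 20.0%. On soil, ATGE_9 against ATGE_3, 1 rose and 9 fell, beside 11.4% and 15.3%. A level was measured on at least 1 side for 5 of the 6 rises and 8 of the 9 falls on GM, for all of those on GM with sucrose, and for the rise and 5 of the 9 falls on soil.

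The members divided by gene in these comparisons. AT1G26390 was at least 1.67-fold higher in the later set on GM (adjusted p = 1.6e-09) and at least 2.55-fold higher with sucrose (adjusted p = 3.3e-09). AT2G23270 was at least 1.36-fold and at least 1.45-fold higher in the same comparisons. AT5G38900 rose 1.75-fold and 2.13-fold, and AT5G38910 was at least 1.62-fold higher on GM with sucrose. These genes were higher in the later plate sets.

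Others were lower there. EXPB1 fell 1.702-fold on GM (adjusted p = 6.7e-05). AT4G31470 was at least 1.23-fold lower on GM and at least 1.48-fold lower with sucrose, AT4G17280 fell 1.43-fold and 1.31-fold, and AT1G44970 1.35-fold and 1.31-fold. GSTU20 fell 1.85-fold with sucrose (adjusted p = 6.4e-06) and gave −0.05 ± 0.13 without it. On soil AT2G43590 fell 3.76-fold (adjusted p = 2.0e-12), AT3G25640 2.22-fold, AT1G44970 1.798-fold and GSTU20 1.71-fold.

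AT5G38910, AT1G26390, AT5G38900 and 267565_at rose with stage on GM and fell on soil, where all 4 were dim. AT5G38910 was dim in both GM groups as well, so neither of its changes has a measured level. AT2G43590 was 1.26-fold higher in the later set on GM (adjusted p = 0.014). That call was lost under median centring (0.25, adjusted p = 0.088), without ATGE_94 replicate 1 (0.25, adjusted p = 0.086) and without ATGE_98 replicate 2 (0.27, adjusted p = 0.077) or 3 (0.24, adjusted p = 0.1). The difference between the stage effects was tested in a contrast added after the values were seen. The stage effect on soil minus that on GM was −2.25 ± 0.15 for AT2G43590 (adjusted p = 6.7e-11) and −1.62 ± 0.27 for AT5G38900 (adjusted p = 6.0e-05). For AT1G26390 it was −4.30 ± 0.36 (adjusted p = 3.6e-09), with both soil groups dim. EXPB1 (0.70 ± 0.19) and AT4G31470 (1.09 ± 0.30) differed the other way. Both fell on GM, where AT4G31470 was dim in ATGE_98, and did not pass on soil. Past the threshold were 4 positive and 9 negative differences, beside 13.4% and 17.1% of all tested probe sets. Over all 27 members, 15 values were above 0 and 12 below (median 0.20, beside −0.047 over all tested).

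**Figure D4:**
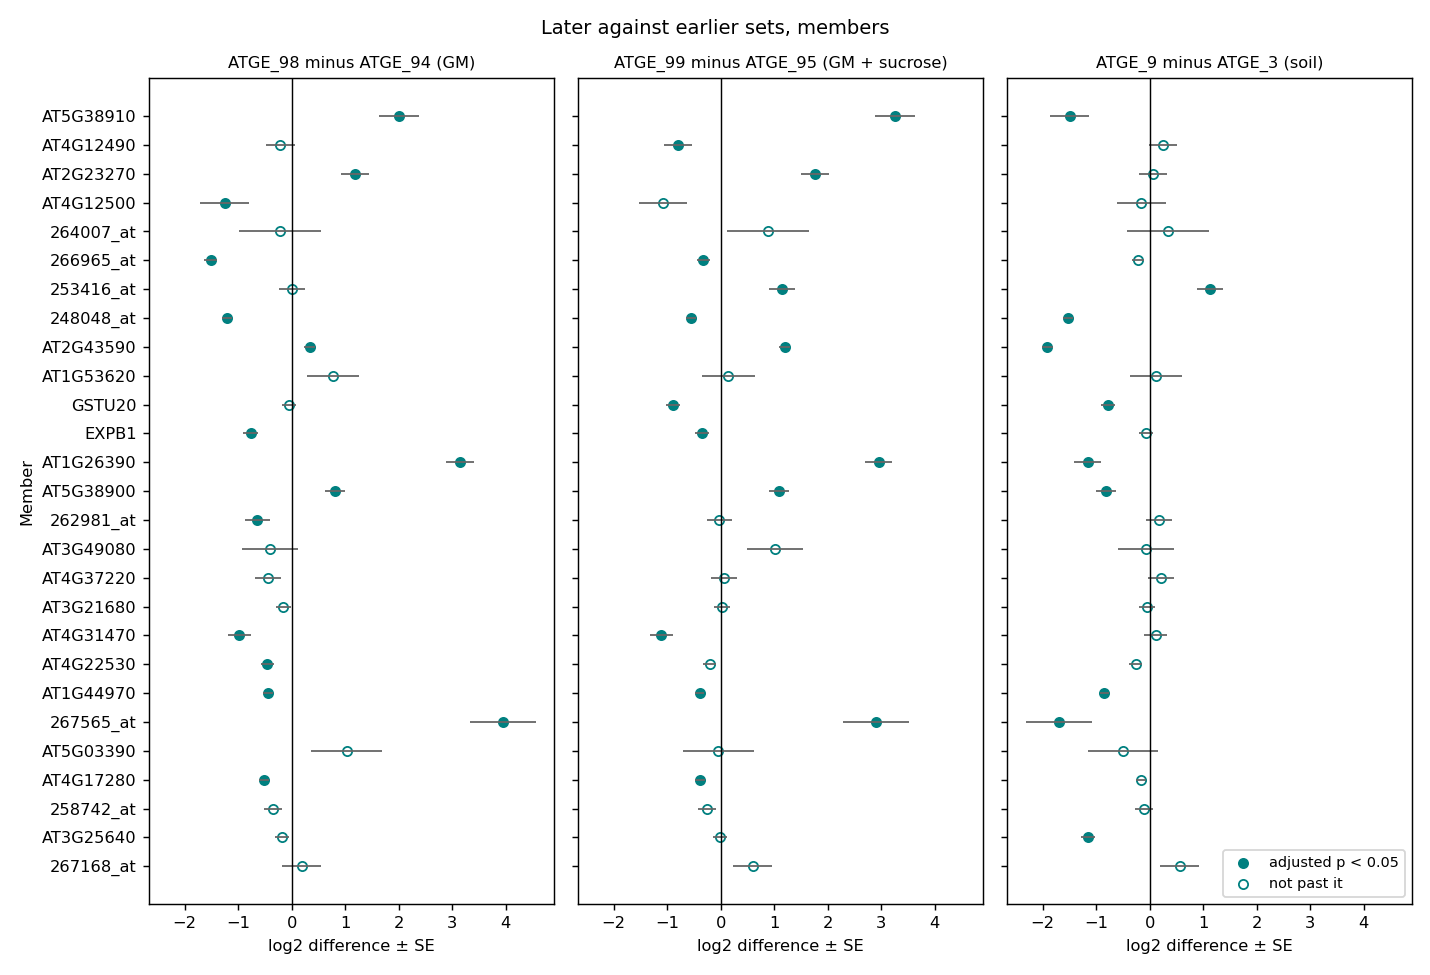
Fitted difference of the later minus the earlier set (log2 ± SE, 3 arrays per group) for the 27 members on GM, on GM with sucrose and on soil, with filled points past adjusted p 0.05. AT1G26390 and AT5G38910 lie right of 0 in the first 2 panels and left of it in the third, and 9 of the 10 filled points on soil lie left of 0.

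In the earlier sets, ATGE_3 against ATGE_94, 9 were higher and 9 lower on soil, beside 35.1% and 30.4% of all tested probe sets. In the later sets, ATGE_9 against ATGE_98, 5 were higher and 10 lower, beside 33.9% and 32.9%. Both groups were dim for 11 members in the earlier comparison and 7 in the later. A level was measured on at least 1 side for 4 of the 9 higher and 6 of the 9 lower calls in the earlier, and for 4 of the 5 and 8 of the 10 in the later. AT4G22530 was lower on soil at both stages, 2.82-fold and 2.46-fold, and GSTU20 was higher, 2.51-fold and 1.53-fold. AT2G43590 was 2.003-fold higher on soil in the earlier sets and 2.37-fold lower in the later.

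In the RefSeq gene order, the 3 protein-coding genes on each side of the 19 named members held 42 tested probe sets with a named gene that was no member. Of these, 5 (11.9%) were highest in ATGE_93, beside 10.7% of all tested probe sets. Beside the pairs described above they were AT2G43570, AT1G26380, AT3G21670, AT2G20760 and AT4G17310. AT3G21670 stood next to AT3G21680, at 63.4 ± 16.4 in ATGE_93 and 52.3 ± 5.41 in ATGE_95.

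Of 326 genes on 18 lists of root, stress, nutrient, hormone, light and clock genes, 44 had a named probe set and 36 were tested, so most listed genes could not appear among the members. None of the 44 was a member. Against the mean of the other 6 groups, 25.0% of all tested probe sets were higher in ATGE_93 and 33.4% lower. Sugar starvation genes were lower in 4 of 4 tested (median log2 difference −1.13). Their summed signal was 1153 to 1160 on the ATGE_93 arrays, 1646 to 1712 in ATGE_95 and 1772 to 1807 in ATGE_99. Over the groups without listed sucrose it ran from 2736 in ATGE_3 to 3806 in ATGE_94. The lower level was thus largely shared with the GM groups with sucrose. AKINBETA1 gave 197 ± 5.08 in ATGE_93, 233 ± 16.8 in ATGE_95 and 445 ± 24.6 in ATGE_94. Heat shock genes were lower in 2 of 3. These 2 heat shock genes were far higher in ATGE_9 than in any other group. AT1G53540 gave 253 ± 33.6 there, 9.04 ± 0.766 in ATGE_93 and 7.87 to 14.1 in the remaining groups. AT5G48570 gave 453 ± 7.92 in ATGE_9, 27.4 ± 0.764 in ATGE_93 and 39.2 to 65.2 in the remaining groups. Higher were 2 of 2 genes of dehydration, cold and abscisic acid (median 0.78), 2 of 3 of flavonoid and phenylpropanoid synthesis, and 2 of 2 of hypoxia. The flavonoid genes UGT78D2 and CHIL gave 247 ± 1.44 and 490 ± 31.8 in ATGE_93. In ATGE_94 they gave 375 ± 18.9 and 504 ± 54.3, and on soil at most 20.3. Both hypoxia genes had higher means in ATGE_9 than in ATGE_93. AT4G17260 gave 187 ± 10.4 against 164 ± 10.5, and AT4G10270 26.6 ± 0.84 against 21.4 ± 3.77. Iron deficiency had 2 higher and 1 lower of 5, defence and salicylic acid 2 lower of 2, and sulfur deficiency 1 higher of 2. Photosynthesis had 1 higher of 6 and root tissue markers 1 higher of 3. The photosynthesis gene was RCA, at 140 ± 1.26 in ATGE_93, 166 to 246 in the other plate groups, and 40.1 and 22.0 on soil. With 1 gene tested in each, light response was higher, the nitrate and evening clock lists lower, and the morning clock list neither. The light response gene HYH gave 95.9 ± 7.34 in ATGE_93, 101 to 123 in the other plate groups, and was dim on soil. Of the genes called higher, only 2 of dehydration, cold and abscisic acid and 1 of iron deficiency had their highest mean in ATGE_93. Phosphate starvation, iron storage, jasmonate, and suberin with the Casparian strip had no tested gene, so these processes were not described here.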

How the data were processed

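Per the labels, the authors made MAS5 signal intensities, on a linear scale, from 21 ATH1 arrays of total RNA. The MAS5 version is not given in the sources used here. The deposited values were kept as scaled by the authors and taken to log2 with no pseudocount. The number of arrays limits the precision. Of 22810 probe sets 64 were controls, and of the rest 13513 had 1 gene in the platform annotation, 503 several and 8730 none. Names came from that annotation and from RefSeq's gene table (TAIR10.1 assembly), which listed all 19 named members.

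Tests covered the 15284 probe sets above the 40th percentile of at least 3 arrays. limma 3.58.1 (R 4.3.3) fitted a mean for each group to the 21 arrays together, using eBayes with a trend on intensity and 14 residual degrees of freedom. P-values are two-sided, and the script was tested on simulated data. Python 3.11.15 with pandas 2.3.3 was used for tables and matplotlib 3.10.9 for plots. Levels are means ± SD, and folds come from log2 means. Where a group was dim on all arrays, its arrays were set at the higher of the 40th percentile and their own value, and the fold is a lower bound, written as at least. Where both groups were dim there is no fold.

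The rule for named genes took the 20 largest margins and 8 highest ATGE_93 signals among members with 1 gene, the 3 largest rises and falls of each comparison, and the 3 named probe sets on each side of the limit. All 19 named members fall under it, and unnamed probe sets are given by ID, chosen after their values were seen. Families, chromosome neighbours, the difference of stage effects and 2 alternatives of the rule were added after the values were seen. The members, lists and rules were chosen with earlier results of these data known. Promoter motif counts were planned and not made. The alternatives changed the scaling (quantile, median), the filter (none, 60th percentile), the pseudocount (6.99), the eBayes trend (none) or the arrays fitted (those compared, each left out), or took the replicate letter as a block.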

Additional observations from a re-analysis of the deposited data

Results flagged for a closer look

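The effect of sucrose differed between the earlier and later sets, by the limma test of the difference itself (later minus earlier, log2, SE, adjusted p < 0.05), in 5 members. The difference was 1.19 ± 0.16 for 266965_at, 1.14 ± 0.34 for 253416_at and 0.64 ± 0.13 for 248048_at. It was 0.86 ± 0.15 for AT2G43590 and −0.84 ± 0.18 for GSTU20, the only negative difference of the 5. For 253416_at all ATGE_94 arrays were dim, so the size of its difference is no measured fold.

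The effect of stage differed between soil and GM (soil minus GM) in 13 members. It was lower on soil for AT5G38910 (−3.50 ± 0.52), AT2G23270 (−1.12 ± 0.37), AT2G43590 (−2.25 ± 0.15) and GSTU20 (−0.72 ± 0.18). The same held for AT1G26390 (−4.30 ± 0.36), AT5G38900 (−1.62 ± 0.27), AT1G44970 (−0.41 ± 0.13), AT3G25640 (−0.98 ± 0.19) and 267565_at (−5.65 ± 0.87). It was higher on soil for 266965_at (1.29 ± 0.16), 253416_at (1.13 ± 0.34), EXPB1 (0.70 ± 0.19) and AT4G31470 (1.09 ± 0.30). Both soil groups were dim for AT5G38910, AT1G26390, AT5G38900 and 267565_at, and both GM groups for AT5G38910, so the size of these 4 differences is no measured fold. ATGE_3 and ATGE_94 were dim for AT2G23270 and 253416_at, and ATGE_98 for AT4G31470. The sizes of their differences are no measured folds either. The difference of AT2G23270 did not pass under quantile normalization (−0.84, adjusted p = 0.093). Nor did it without ATGE_3 replicate 1 (−1.01, adjusted p = 0.058), ATGE_9 replicate 3 (adjusted p = 0.062), ATGE_94 replicate 2 (−0.93, adjusted p = 0.071) or ATGE_98 replicate 2 (−0.86, adjusted p = 0.083). That of AT1G44970 did not pass under median centring (−0.27, adjusted p = 0.093) or without ATGE_94 replicate 3 (−0.30, adjusted p = 0.054).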

How the results depend on the processing

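The rule gave 27 members, and 30 after quantile normalization (25 shared), 37 after median centring (27 shared), 19 with the pseudocount and 20 at the 60th percentile. A margin of 1.0 left 12, since it asks for more. Chosen after seeing the data, setting dim arrays at the 40th percentile left 22, and leaving group ATGE_3 out gave 37. Leaving out each array in turn gave 25 to 29, with 24 to 27 shared. Counts of members past the threshold stayed within 1.5 times under every alternative run. With 1 array left out, sucrose gave 9 to 13 members for the earlier harvest and 11 to 15 for the later, where quantile normalization gave 12 and median centring 13 in both directions together. Of 84 calls of named members, 67 passed under every alternative in which their probe set was tested, 17 were lost under at least 1 and 0 reversed. Alternatives whose filter dropped a probe set were not counted for it. With the replicate letter as a block the sucrose counts were 12 and 14, and those of stage on GM, on GM with sucrose and on soil 15, 16 and 10. Soil against GM gave 18 and 15, the differences of sucrose and stage effects 5 and 14. Arrays with the same letter did not deviate together across all tested probe sets (r from −0.077 to 0.070 over 33 pairs). A link limited to some probe sets need not show in this check. Dim signals limit 7 members most, with 5 or 6 other groups dim on all arrays. Only 10 members had no group that was dim on all its arrays, and comparisons of the rest with a dim group are limited too.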
